A study of Mus musculus and Homo sapiens with 9 samples.

Results

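TAL1, its binding partners and the transcription factors that act with it in the T cell form of acute lymphoblastic leukemia, T-ALL, were followed in RNA-seq counts of human leukemia cells and of mouse T cells. The members were the rows of each count table whose gene symbol was TAL1, LMO1, LMO2, LYL1, LDB1, GATA3, MYB, TCF3, TCF12 or TCF4, in mouse case for the mouse table. HEB is an alias of TCF12 and had no row of its own, so that 11 names gave 10 genes in each table, out of 56105 annotated human and 42462 annotated mouse genes. After a filter on low counts, 9 of the 10 genes were among the 15819 human genes tested and all 10 were among the 15350 mouse genes tested.

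The study asked what the transcriptional cofactor IRF2BP2 does in T-ALL. J.gamma1 is a T-ALL line that was derived from Jurkat. It carried either the control short hairpin RNA shNC or the hairpin shIRF2BP2, which lowers IRF2BP2, with 2 libraries of each. The text of the study does not say which of its hairpins against IRF2BP2 the sequenced cells carried. In the mouse, CD3+ T cells were taken from the spleen at 6 weeks of age with magnetic beads, giving 2 knockout (KO) libraries from Vav-iCre+/-;Irf2bp2fl/fl animals and 3 controls that are labelled wild type (WT) and that the methods call Vav-iCre-/-;Irf2bp2fl/fl. Both groups thus carried the floxed allele by the methods, and only the KO carried Vav-iCre, a Cre recombinase active throughout the blood lineages and not in T cells alone. No source says that the libraries of a group came from separate cultures or animals, so the p-values measure only the spread between these libraries.

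TAL1 and LYL1 are basic helix-loop-helix (bHLH) proteins that are normally shut off as thymocytes mature, and TAL1 is essential for the formation of blood stem cells and red cells. They bind DNA at E-box sequences as dimers with an E protein, the widely expressed bHLH factors encoded by TCF3 (E2A), TCF12 (HEB) and TCF4 (E2-2). The LIM-only proteins LMO1 and LMO2 join this dimer to the scaffold LDB1 and to a GATA factor, and in T-ALL the complex often binds enhancers together with GATA3, RUNX1 and MYB. ID proteins lack the DNA-binding region, pair with E proteins and thereby keep them off DNA.

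The knockdown and the knockout were checked first. IRF2BP2 measured 204 and 199 counts per 1000000 (CPM, on library sizes scaled by TMM) with shNC and 79.0 and 93.8 CPM with shIRF2BP2, a log2 fold change of -1.22 (adjusted p = 0.0023). Irf2bp2 had 4145, 4594 and 1915 counts in the WT libraries and 0 in both KO libraries. Here and throughout, p-values come from the quasi-likelihood test of edgeR and adjusted p-values from the Benjamini-Hochberg method over every gene tested. SE is the standard error of a log2 fold change. It was worked back from the F statistic of that test, as the size of the change divided by the square root of F. A gene was called when its adjusted p was under 0.05 and its log2 fold change was at least 0.5 in size for J.gamma1 or at least 1 for the mouse. Total counts per library lay between 26648204 and 31120236 for J.gamma1 and between 16668577 and 37177523 for the mouse, where WT replicate 3 was the shallowest. Defining T cell genes were present in every library, with 11 T cell markers summing to 1693 to 1958 CPM in J.gamma1 and 3231 to 5099 CPM in the mouse.

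In J.gamma1 cells the E protein gene TCF12 and the adaptor gene LMO1 fell after the knockdown of IRF2BP2, while TAL1 itself was not called. LMO1 fell by 1.33 and TCF12 by 0.61 on the log2 scale, and these were the only members called. Of the 9 genes tested, 0 were called higher, against 5.46% of all genes, and 2 were called lower, against 5.01% of all genes. At an unadjusted p under 0.05 there were 5 of the 9, a count given without its share over all genes. DESeq2 called 0 higher and 2 lower, with 1022 genes higher and 960 lower in all. The CPM of 7 of the 9 did not overlap between the groups, whereas this held for 58.3% of all genes tested. The median log2 fold change was 0.19 over the members and 0.01 over all genes, with 6 members higher and 3 lower.

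**Figure D1:**
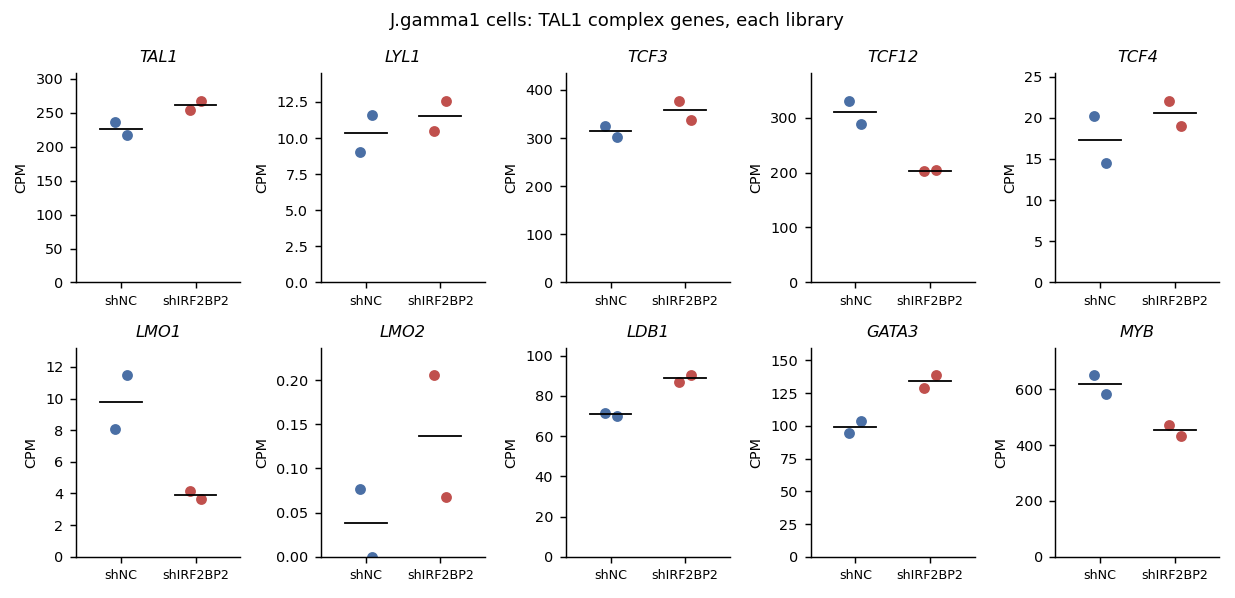
Expression of the 10 members in J.gamma1 cells, in CPM on an axis from 0. Each point is 1 library, the black line is the mean of 2 libraries, blue marks shNC and red shIRF2BP2. LMO1, TCF12 and MYB sit lower and TAL1, TCF3, LDB1 and GATA3 sit higher in both shIRF2BP2 libraries, and LMO2 is near 0 throughout.

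TAL1 (ENSG00000162367) lies on chromosome 1 of hg38 from 47216290 to 47232225 on the minus strand. It measured 236 and 217 CPM with shNC and 254 and 268 CPM with shIRF2BP2. Both knockdown libraries thus lay above both controls, but the log2 fold change was only 0.20 (SE 0.121, adjusted p = 0.32) and TAL1 was not called. Leaving out each library in turn moved it between 0.14 and 0.26. TAL1 overlaps an antisense gene without a symbol (ENSG00000226252) over 845 exon bases, but that gene held 20 to 44 counts per library against 6117 to 7903 for TAL1. LYL1, the close relative of TAL1, was far lower, at 9.04 and 11.6 CPM with shNC and 10.5 and 12.6 CPM with shIRF2BP2. The groups of LYL1 overlapped, its log2 fold change was 0.16 (adjusted p = 0.67), and the sign turned to -0.0089 without shNC replicate 1. The 3 genes whose profile over the 4 libraries was nearest to that of TAL1, by the distance between centred log2 CPM among 9755 genes, were OGT (0.0246), WAC (0.0304) and TRAPPC11 (0.0308). OGT, which adds N-acetylglucosamine to nuclear and cytoplasmic proteins, went from 280 and 253 to 293 and 314 CPM.

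Of the E protein genes TCF12 alone was called. TCF12 (chromosome 15, 56918623 to 57299281) measured 331 and 289 CPM with shNC and 203 and 204 CPM with shIRF2BP2. The knockdown libraries were nearly alike and well below both controls, which gave a log2 fold change of -0.61 (SE 0.126, adjusted p = 0.023). This call was lost without either shIRF2BP2 library, with adjusted p-values of 0.12 without replicate 1 and 0.11 without replicate 2, and the fold change stayed at -0.63 and -0.61. TCF3 measured 326 and 303 CPM with shNC and 378 and 338 CPM with shIRF2BP2. Its knockdown libraries lay above both controls, with a log2 fold change of 0.19 (adjusted p = 0.39). TCF4, best known as the E protein of plasmacytoid dendritic cells, was low, at 20.2 and 14.5 CPM with shNC and 22.1 and 19.0 CPM with shIRF2BP2. Its groups overlapped and it was not called (log2 fold change 0.25, adjusted p = 0.47). The value was 0.50 without shNC replicate 1 and 0.022 without shNC replicate 2.

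The sequences below show the places in 3′ UTRs of hg38 where TCF12 and TAL1 carry the word GGTCTA or its longer form AGGTCTA, and a site of TCF4 is described after them. They are shown because human genes that hold it were called lower more often in these cells. The word was taken from an earlier scan of these same counts, so its class values are a description. Each line is 30 bases, 5′ to 3′ on the strand of the gene, with the word in capitals. The sites of TCF12 lie at chr15:57286522-57286551 and chr15:57288676-57288705 on the plus strand and that of TAL1 at chr1:47218726-47218755 on the minus strand.
TCF12 site 1: atgaaactgtaAGGTCTAcatataaaggga
TCF12 site 2: agttggcaatctGGTCTAgagcttctctag
TAL1 site: tgctgatggtctGGTCTAtgttccgaattg

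Of 12552 tested genes whose 3′ UTR reached 50 bases, 714 held AGGTCTA there, and 19.7% of these were called lower. The other longer form, GGTCTAA, was held by 640 genes, with 18.8% called lower. The 915 genes that held GGTCTA without A on either side were called lower in 8.96% of cases and genes without the word in 4.37%. TCF12 was in the class with the highest of these shares and TAL1, which was not called, in the class between. TCF4 went against this order: it held GGTCTAA once in the 3′ UTR and GGTCTA once in the coding sequence, yet its log2 fold change was 0.25 and it was not called. The other 6 members tested, LMO1, MYB, LYL1, LDB1, GATA3 and TCF3, did not hold the word in the coding sequence or 3′ UTR of the canonical transcript. Among the members tested, the 3′ UTRs of TCF4 (5850 bases), TCF12 (3708) and TAL1 (3429) were the longest. That of LMO1 had 307 bases and that of LYL1 286, and the classes were not matched for this length. The part of the word in the change of TCF12 was not tested.

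LMO1 (ENSG00000166407, chromosome 11, 8224309 to 8268716) was the member with the largest fitted change in J.gamma1. It measured 8.07 and 11.5 CPM with shNC, or 209 and 356 counts, and 4.16 and 3.63 CPM with shIRF2BP2, or 121 and 107 counts. The groups were clearly apart and the gene was 2.51-fold lower (log2 fold change -1.33, SE 0.261, adjusted p = 0.019). Fits without single libraries put the change between -1.56 and -1.05, with adjusted p-values of 0.0014 to 0.047. Both calls of the members, LMO1 and TCF12, were lost when every gene with at least 1 count in any library was kept in the fit, with adjusted p-values of 0.055 and 0.051. LMO2 was almost silent, with 2 and 0 counts with shNC and 6 and 2 with shIRF2BP2, and could not be tested at this depth. LDB1, the scaffold that the LIM-only proteins bind, measured 71.4 and 70.0 CPM with shNC and 86.8 and 90.4 CPM with shIRF2BP2. All knockdown values lay above the controls, and its log2 fold change was 0.33 (SE 0.111, adjusted p = 0.1).

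GATA3 and MYB, the factors that join the TAL1 complex at T-ALL enhancers, differed in sign. GATA3 measured 94.5 and 104 CPM with shNC and 129 and 139 CPM with shIRF2BP2, a log2 fold change of 0.43 (SE 0.12, adjusted p = 0.057). MYB, a factor that keeps blood progenitors dividing, had 652 and 584 CPM with shNC and 473 and 433 CPM with shIRF2BP2. Its log2 fold change was -0.45 (SE 0.133, adjusted p = 0.07), so that neither gene was called, although the groups of each stood apart. Without shNC replicate 2 the fitted changes were larger in size, at 0.50 for GATA3 and -0.53 for MYB. MYB was called with upper-quartile scaling (-0.50, adjusted p = 0.04). By DESeq2 the adjusted p of MYB was 0.0099 and that of GATA3 0.019, with fold changes below the threshold.

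**Figure D2:**
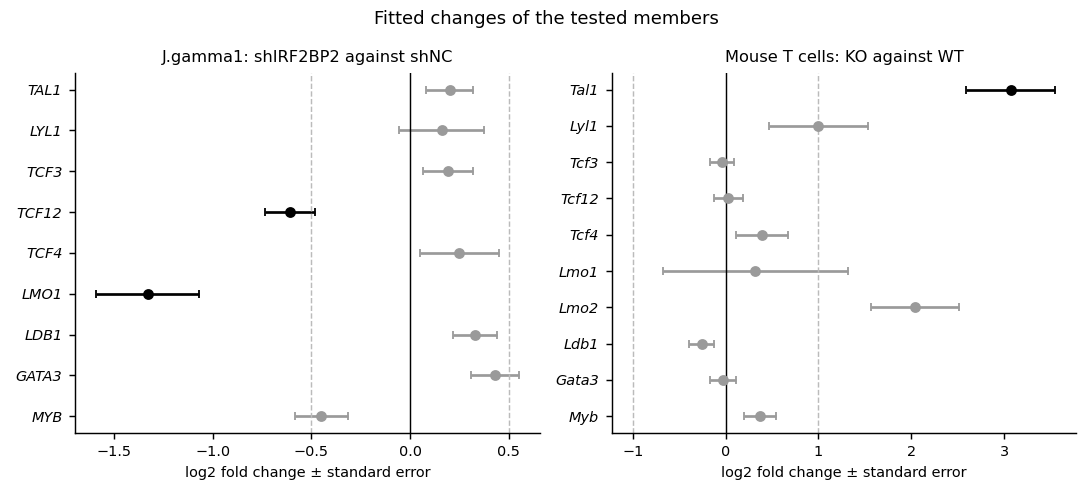
Log2 fold changes of the members tested, shIRF2BP2 against shNC on the left and KO against WT on the right. Points are the fitted values, bars their standard errors, dashed lines the fold thresholds of 0.5 and 1, and black points the called genes, which are TCF12 and LMO1 in J.gamma1 and Tal1 in the mouse.

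Levels of different genes were compared per length, as CPM per kilobase of the canonical transcript. In shNC cells MYB was the highest member at 168 ± 13.2 CPM per kb (SD, n = 2). TCF3 followed at 66.4 ± 3.47, TCF12 at 50.7 ± 4.87 and TAL1 at 48.8 ± 2.99 CPM per kb (SD, n = 2 each). GATA3 was at 32.3 ± 2.25 and LDB1 at 22.8 ± 0.328 CPM per kb, whereas LMO1 at 7.55 ± 1.86, LYL1 at 6.97 ± 1.23 and TCF4 at 2.16 ± 0.504 CPM per kb formed the lower end. The libraries of TCF12 and TAL1 overlapped, as did those of LMO1 and LYL1, and all other neighbours in this order stood apart. With the length of all exons in place of the canonical transcript TAL1 (39.7 CPM per kb) came before TCF12 (32.8 CPM per kb). By level per length TAL1 lay at the 88.3rd percentile of tested protein-coding genes in shNC cells, TCF12 at the 88.8th and MYB at the 97.5th. With shIRF2BP2, TCF12 dropped to 33.3 ± 0.167 CPM per kb (SD, n = 2), below TAL1 at 56.2 ± 2.2 and GATA3 at 43.6 ± 2.27.

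Ratios between members were also taken on this per-length scale. The ratio of TCF12 to TCF3 was 0.786 and 0.738 with shNC and 0.416 and 0.469 with shIRF2BP2. The 3 E proteins summed to 126 and 113 CPM per kb with shNC and to 116 and 107 with shIRF2BP2, which overlapped. TAL1 relative to this sum went from 0.406 and 0.413 to 0.472 and 0.54. TAL1 relative to LDB1 went the other way, from 2.21 and 2.07 to 1.95 and 1.98. TAL1 relative to LYL1 was 8.34 and 5.96 with shNC and 7.7 and 6.78 with shIRF2BP2, which overlapped. The LIM-only genes relative to LDB1 went from 0.272 and 0.393 to 0.118 and 0.0972. The sum of the ID genes relative to the E proteins went from 0.484 and 0.556 to 1.62 and 1.36. Apart from the E protein sum and the TAL1 to LYL1 ratio, none of these values overlapped between the groups, and a permutation of 4 libraries cannot bring any of them under p = 0.05.

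**Figure D3:**
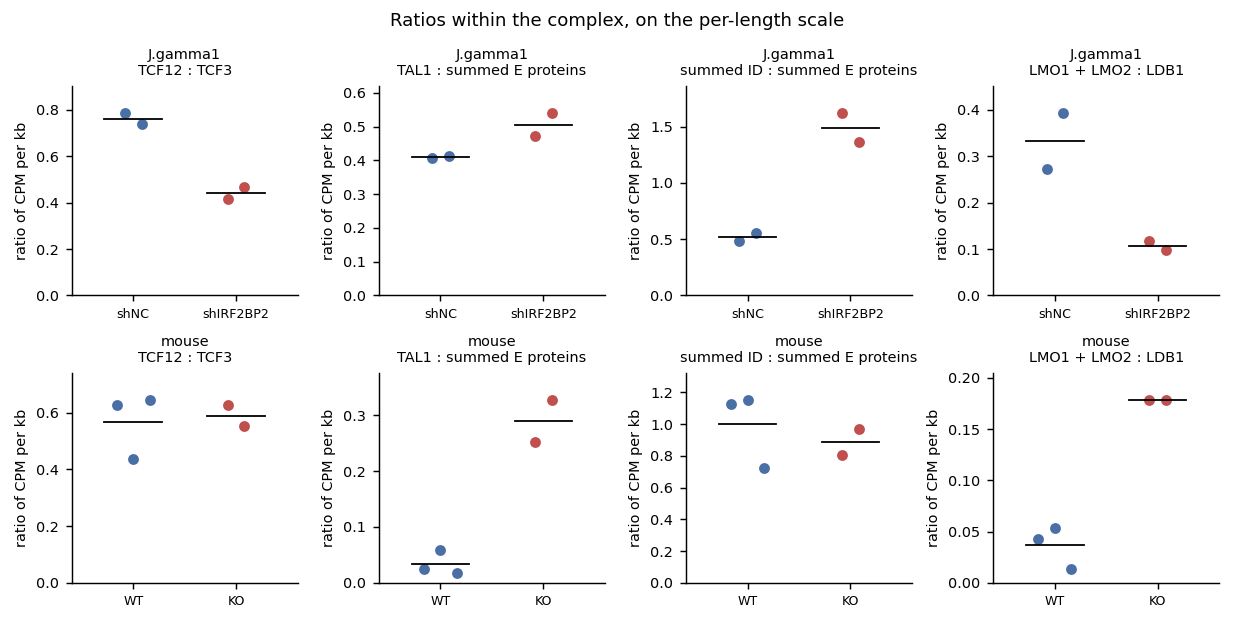
Ratios of CPM per kb between parts of the complex in J.gamma1 (top) and mouse T cells (bottom), on axes from 0. Each point is 1 library and the black line the group mean. In J.gamma1 the TCF12 to TCF3 and LIM-only to LDB1 ratios fall and the ID to E protein ratio rises with the knockdown, and in the mouse the TAL1 to E protein and LIM-only to LDB1 ratios are higher in the KO.

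Each ID gene with counts rose after the knockdown. Of the list of 4 ID genes, 3 were tested in J.gamma1 and all 3 were called higher, also without any single library. Over all genes tested 5.46% were called higher. The median log2 fold change of the ID genes was 1.62 against 0.01 over all genes, and ID4 was at 0. ID1 went from 26.6 and 24.0 CPM to 58.5 and 45.8 CPM (log2 fold change 1.04, adjusted p = 0.0071). ID2 rose from 1.93 and 2.58 to 11.9 and 7.56 CPM (adjusted p = 0.0068) and ID3 from 30.5 and 34.6 to 112 and 88.2 CPM (1.62, adjusted p = 0.0016). Both knockdown libraries were above both controls for each of them.

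Genes known to depend on E proteins in developing T cells did not move one way. Of 14 tested, 3 were called lower and 1 higher, against 5.01% and 5.46% of all genes, and the median was -0.35. With single libraries left out, 2 to 5 were called lower, the highest count being without shNC replicate 1 and the lowest without shNC replicate 2 or shIRF2BP2 replicate 1. Those called lower were the recombinase genes RAG1 (-2.72) and RAG2 (-2.01) and PTCRA (-2.51), which encodes the pre-T cell receptor alpha chain. PTCRA was near the floor, at 1.24 and 2.68 CPM with shNC and 0.275 and 0.407 CPM with shIRF2BP2. Its lowest library held 8 counts (SE 0.561, adjusted p = 0.03). FOXO1, a forkhead factor of T cell homeostasis, rose by 1.26 on the log2 scale. RAG1 went from 60.9 and 30.2 CPM with shNC to 6.87 and 6.95 CPM with shIRF2BP2.

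Genes that TAL1 is known to switch on in T-ALL went both ways. Of the 8 in the list, which holds GATA3 and MYB too, 4 were called higher and 2 lower. Over all genes these shares were 5.46% and 5.01%, and the median of the list was 0.49. Without shIRF2BP2 replicate 1 only 1 was called higher, and without shIRF2BP2 replicate 2 there were 2. The pseudokinase gene TRIB2 rose from 46.0 and 51.5 to 214 and 217 CPM (log2 fold change 2.14, adjusted p = 0.00041) and the cell cycle kinase gene CDK6 from 1753 and 1133 to 3029 and 2585 CPM (0.96, adjusted p = 0.032). ALDH1A2, the retinoic acid enzyme gene, fell from 251 and 275 to 47.9 and 67.2 CPM (-2.20, adjusted p = 0.0011). TAL1 itself was not called in the same libraries.

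Among the complex partners and cofactors, 3 of 17 tested were called higher and 2 lower, against 5.46% and 5.01% of all genes. Their median was 0.25. The higher count was 5 without shNC replicate 1 and 1 without shIRF2BP2 replicate 1. The acetyltransferase gene CREBBP rose from 97.7 and 67.1 to 174 and 155 CPM (1.00, adjusted p = 0.014) and the ETS factor gene FLI1 from 118 and 118 to 192 and 193 CPM (0.71, adjusted p = 0.0092). CBFA2T3, the ETO2 corepressor that sits in TAL1 complexes, fell from 114 and 121 to 61.5 and 62.6 CPM (-0.92, adjusted p = 0.0033). ERG was low, at 3.40 and 3.09 CPM with shNC and 0.721 and 1.36 CPM with shIRF2BP2 (-1.64, adjusted p = 0.041). Of the other factors that drive subtypes of T-ALL, 9 of 16 were tested, 0 were called higher and 1 was called lower, while LMO3, TLX3 and OLIG2 were at 0 in all 4 libraries. At an unadjusted p under 0.05 there were 2, and DESeq2 called 1 higher. Counts at an unadjusted p are given here without their share over all genes. The other MYB and GATA family genes gave 0 calls among 4 tested by edgeR and DESeq2, with 1 at an unadjusted p under 0.05. The most abundant were MYBL2, at 288 and 306 CPM with shNC and 392 and 326 CPM with shIRF2BP2, and MYBL1, at 18.9 and 17.2 and then 15.9 and 18.3 CPM. Of the 11 T cell markers, CD28 (0.81) and LAT (0.79) were called higher and CD3D (-0.79) lower, and the median was 0.00. The call of CD3D was lost without shIRF2BP2 replicate 1.

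In mouse T cells without Irf2bp2 the counts of Tal1 were far higher than in controls, with Lmo2 higher in the same libraries and the E protein genes nearly level. Tal1 was the only member called, at 8.42-fold. Of the 10 members, 1 was called higher, against 2.47% of all genes, and 0 lower, against 0.111% of all genes. At an unadjusted p under 0.05 there were 2, a count given without its share over all genes. DESeq2 called 2 higher and 0 lower, with 735 genes higher and 66 lower in all. The CPM of 5 of the 10 did not overlap between the groups, against 36% of all genes tested. The median log2 fold change was 0.35 over the members and -0.02 over all genes. In bulk libraries such as these, a change in the number of cells of a type and a change in RNA per cell cannot be told apart.

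**Figure D4:**
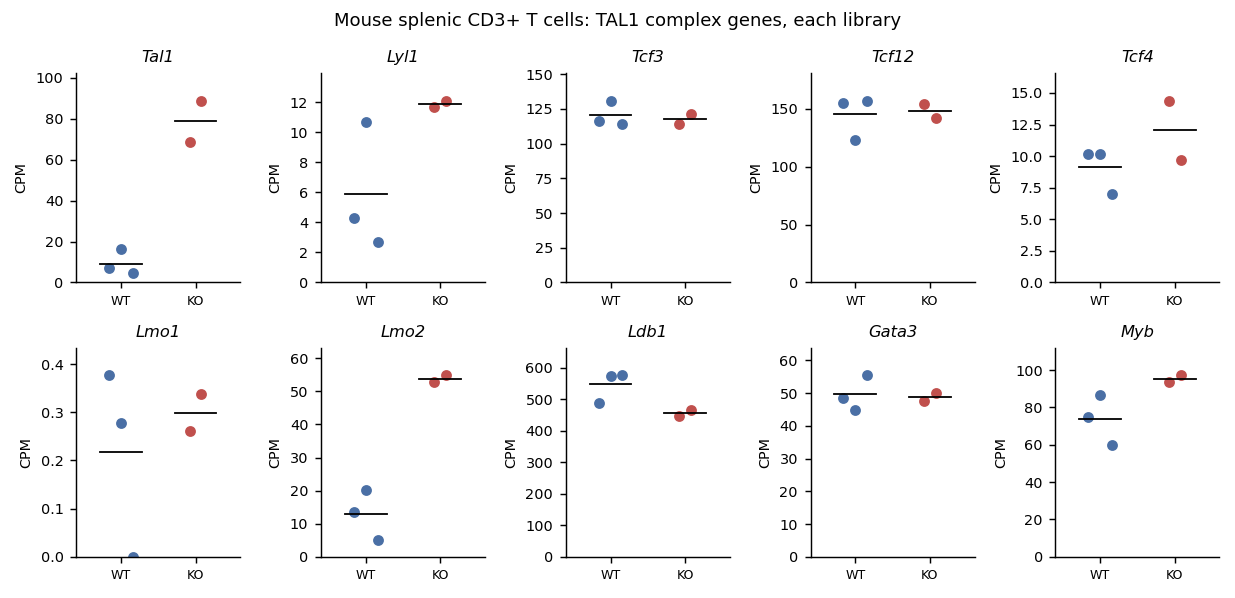
Expression of the 10 members in mouse splenic CD3+ T cells, in CPM on an axis from 0. Each point is 1 library, the black line is the group mean, blue marks 3 WT and red 2 KO libraries. Tal1 and Lmo2 stand far apart, whereas Tcf3, Tcf12 and Gata3 overlap.

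Tal1 (ENSMUSG00000028717) lies on chromosome 4 of GRCm38, the assembly also called mm10, from 115056426 to 115071755 on the plus strand. It measured 6.83, 16.2 and 4.63 CPM in WT and 68.8 and 88.9 CPM in KO. The lowest KO library was several times above the highest WT library, which was WT replicate 2. The means were 9.22 ± 6.15 CPM (SD, n = 3) and 78.9 ± 14.3 CPM (SD, n = 2), with a log2 fold change of 3.07 (SE 0.481, adjusted p = 0.027). The call was lost without WT replicate 1 (2.88, adjusted p = 0.13), without KO replicate 1 (3.23, adjusted p = 0.095) and without KO replicate 2 (2.86, adjusted p = 0.16). By DESeq2 the adjusted p was 5.6e-09. On the per-length scale Tal1 moved from the 27.2nd percentile of tested protein-coding genes in WT to the 69.0th in KO.

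Windows around an annotated Tal1 start site and that of human TAL1 are shown with the GATA and E-box words they hold. Each is 300 bases, 250 before and 50 after the start site, 5′ to 3′ on the strand of the gene. The mouse sequence is from RefSeq (GRCm38.p6, chr4:115056176-115056475, plus strand) and the human sequence from hg38 (chr1:47232176-47232475, minus strand). Capitals mark matches, on either strand, to the GATA word AGATAA, which reads TTATCT on the other strand, and to the E-box CATCTG, which reads CAGATG there.
Tal1: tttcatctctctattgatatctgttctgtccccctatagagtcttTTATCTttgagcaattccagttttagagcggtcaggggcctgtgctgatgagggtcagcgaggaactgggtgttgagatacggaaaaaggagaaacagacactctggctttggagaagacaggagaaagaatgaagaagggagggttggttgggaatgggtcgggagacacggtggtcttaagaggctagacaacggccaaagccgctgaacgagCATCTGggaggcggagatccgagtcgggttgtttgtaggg
TAL1: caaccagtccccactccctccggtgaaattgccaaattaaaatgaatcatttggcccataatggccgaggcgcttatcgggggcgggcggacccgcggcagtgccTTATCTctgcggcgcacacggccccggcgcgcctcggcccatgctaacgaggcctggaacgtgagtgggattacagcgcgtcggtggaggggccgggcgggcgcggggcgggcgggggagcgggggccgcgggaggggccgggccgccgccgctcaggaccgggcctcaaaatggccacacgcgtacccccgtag

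In the mouse window AGATAA began at -205 and CATCTG at +10 from the start site, and in the human window AGATAA began at -145, with no match to the E-box there. The GATA word was present in 11.2% of 32851 mouse and 7.32% of 20457 human promoters of this length, and CATCTG in 17.2% and 11.2%. The E-box CAGCTG, the RUNX word TGTGGT and the ETS word CCGGAA were not matched in either window. A second start site of Tal1, in a window that begins at 115057561, held none of the 5 words. The words share no overlap with each other. These matches describe the letters and no binding was measured here.

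Lmo2, the LIM-only partner of Tal1 in blood stem cells and the erythroid lineage, measured 13.6, 20.1 and 5.07 CPM in WT and 52.7 and 55.0 CPM in KO. The groups were well apart, with a log2 fold change of 2.04 (SE 0.473), but the adjusted p was 0.085 and Lmo2 was not called. It was called without WT replicate 2 (2.50, adjusted p = 0.032), without WT replicate 3 (1.67, adjusted p = 0.022) and by DESeq2 (2.05, adjusted p = 0.0005). Lyl1 measured 4.27, 10.7 and 2.69 CPM in WT and 11.7 and 12.1 CPM in KO. KO lay only just above WT replicate 2, with a log2 fold change of 1.00 (SE 0.536, adjusted p = 0.44). Without WT replicate 2 it was 1.77 (adjusted p = 0.032). Lmo1 had 14, 10 and 0 counts in WT and 10 and 12 in KO, too few for a difference to be detectable. Ldb1 measured 490, 574 and 578 CPM in WT and 447 and 467 CPM in KO, with every KO value below every WT value and a log2 fold change of -0.26 (adjusted p = 0.43). It shares 177 exon bases with Pprc1 on the other strand, which held 2077 to 4645 counts per library, so that some reads of either gene may be counted for the other.

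The E protein genes of the mouse cells lay close together in the 2 groups. Tcf3 measured 116, 131 and 114 CPM in WT and 114 and 121 CPM in KO (log2 fold change -0.04, SE 0.125, adjusted p = 0.93). Tcf12 measured 155, 123 and 157 CPM in WT and 154 and 142 CPM in KO (0.03, SE 0.152, adjusted p = 0.95). Tcf4 measured 10.2, 10.2 and 7.01 CPM in WT and 14.4 and 9.66 CPM in KO (0.39, adjusted p = 0.57). All 3 overlapped between the groups, and the sign of Tcf3 and Tcf12 turned when single libraries were left out. Gata3, the master factor of type 2 helper T cells, also overlapped, with 48.6, 45.0 and 55.6 CPM in WT and 47.5 and 49.9 CPM in KO (-0.03, adjusted p = 0.95). Myb measured 74.8, 86.5 and 60.0 CPM in WT and 93.5 and 97.5 CPM in KO. Both KO values lay above all WT values, with a log2 fold change of 0.37 (SE 0.17, adjusted p = 0.35).

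On the per-length scale Ldb1 was the highest member in WT, at 239 ± 21.6 CPM per kb (SD, n = 3), followed by Tcf3 at 40.9 ± 3.2, Myb at 24 ± 4.32, Tcf12 at 23 ± 3.07 and Gata3 at 15.5 ± 1.68. Lmo2 at 8.47 ± 4.94, Lyl1 at 3.27 ± 2.36, Tal1 at 2.19 ± 1.46, Tcf4 at 1.06 ± 0.214 and Lmo1 at 0.17 ± 0.153 CPM per kb came last. Myb and Tcf12 overlapped, and so did each neighbouring pair from Lmo2 to Tcf4. With the length of all exons Gata3 (12.5 CPM per kb) came before Tcf12 (9.33) and Myb (8.26), and Ldb1 (119) and Tcf3 (29.8) stayed ahead of them. In KO, Lmo2 at 35.2 ± 1.06 CPM per kb (SD, n = 2) lay next after Tcf3 and above Myb at 31.1 ± 0.922, and Tal1 at 18.7 ± 3.39 lay above Gata3 at 15.1 ± 0.519. Tal1 relative to the summed E proteins was 0.0249, 0.059 and 0.0171 in WT and 0.252 and 0.327 in KO. Tal1 relative to Lyl1 was 0.684, 0.647 and 0.735 in WT and 2.52 and 3.13 in KO. The summed E proteins were 65.1, 65.2 and 64.4 CPM per kb in WT and 64.9 and 64.6 in KO.

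Erythroid genes moved with Tal1 and Lmo2 in these libraries. Of 16 erythroid markers, 15 were tested. Of these, 9 were called higher, against 2.47% of all genes. All 15 had higher fitted values, with a median of 2.79 on the log2 scale. The count of calls was 2 without WT replicate 1 or KO replicate 2, 3 without KO replicate 1 and 10 without either of the other WT libraries. Summed without the globins, 11 of them gave 124, 163 and 56.5 CPM in WT and 1110 and 1335 CPM in KO. The 4 globin genes gave 2169, 1150 and 557 CPM in WT and 3690 and 5317 CPM in KO. Gata1, the GATA factor of red cell precursors, went from 9.96, 16.3 and 7.07 to 38.5 and 49.1 CPM (1.97, adjusted p = 0.035), the spectrin gene Sptb had a log2 fold change of 4.40, and Slc4a1, the band 3 anion exchanger, was at 3.68. Per 1000 CPM of the erythroid markers other than globins, Tal1 measured 54.9, 99.2 and 81.9 CPM in WT and 61.9 and 66.6 CPM in KO, so that the groups overlapped on this scale. Per 1000 CPM of all the erythroid markers, globins included, Tal1 measured 2.98, 12.3 and 7.55 CPM in WT and 14.3 and 13.4 CPM in KO, and both KO values lay above all WT values. Lmo2 relative to the markers other than globins measured 109, 123 and 89.7 CPM in WT and 47.5 and 41.2 CPM in KO, which did not overlap. The part of erythroid cells in the changes of Tal1 and Lmo2 was not tested.

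The genes nearest in profile to Tal1 over the 5 libraries were genes of surface proteins and of an enzyme. Among 9100 genes they were Kel (distance 0.107), which encodes the Kell blood group protein, Car2 (0.26), carbonic anhydrase 2, and Cd24a (0.342), a surface protein of many immature blood cells. Kel went from 4.08, 10.1 and 3 CPM in WT to 40.7 and 55.0 CPM in KO and Car2 from 46.5, 89.8 and 28.8 to 461 and 611 CPM. These 3 genes were chosen for their likeness to Tal1 over these libraries, so they share its highest control, WT replicate 2, by selection. That library was also the highest control for Lmo2 and Lyl1.

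**Figure D5:**
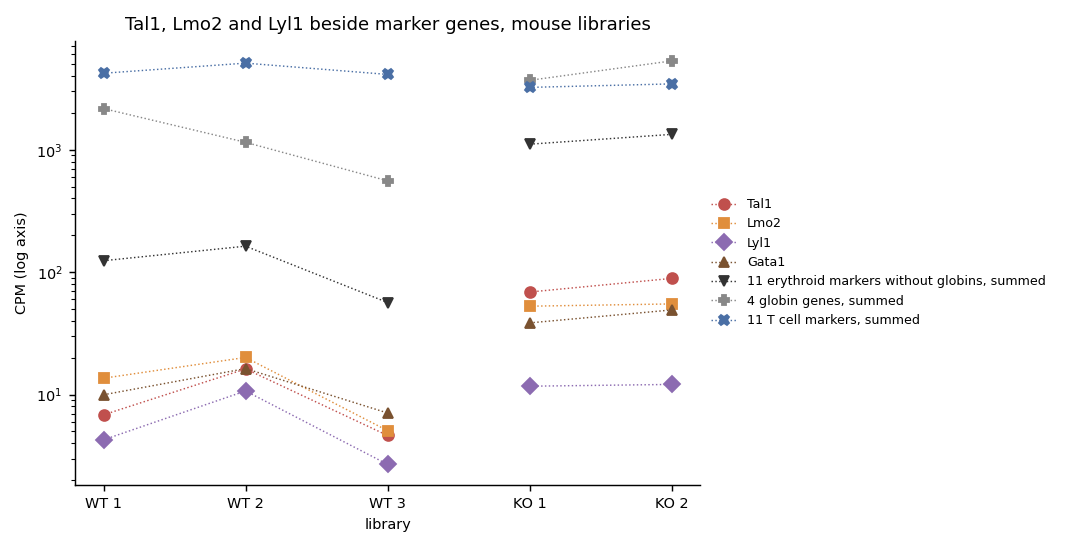
CPM of Tal1, Lmo2, Lyl1, Gata1 and summed marker lists in each mouse library, on a log axis. Dotted lines join the libraries of a group only to guide the eye. Tal1, Lmo2 and the erythroid sums are higher in both KO libraries, while the 11 T cell markers sum to 4123 to 5099 CPM in WT and 3231 and 3450 CPM in KO.

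Markers of the T cells themselves were lower in KO in 10 of 11 cases, with a median of -0.43. By edgeR and DESeq2 0 were called, and 6 had an unadjusted p under 0.05, a count given without its share over all genes. The most abundant were Lck, at 916, 1117 and 1012 CPM in WT and 694 and 809 CPM in KO, and Lat, at 534, 784 and 473 against 390 and 428 CPM. B cell markers summed to 157, 268 and 36.9 CPM in WT and 109 and 37.5 CPM in KO. Myeloid markers summed to 149, 366 and 41.8 against 123 and 77.3 CPM. Both sums overlapped between the groups and were highest in WT replicate 2. All 8 B cell markers (median -1.15) and all 8 myeloid markers (median -0.63) had lower fitted values in KO. In both lists 0 were called by either tool or at an unadjusted p under 0.05. Plasmacytoid dendritic markers summed to 141, 236 and 144 against 134 and 134 CPM, mast and basophil markers to 21.1, 67 and 17.3 against 45.9 and 40.1 CPM, and megakaryocyte markers to 7.42, 15.8 and 6.94 against 14.8 and 11 CPM, each with 0 called by either tool and 1 gene at an unadjusted p under 0.05. Progenitor markers summed to 20.2, 33.4 and 8.82 CPM in WT and 54.8 and 39.7 CPM in KO, which did not overlap, with 0 called by either tool and 2 at an unadjusted p under 0.05. Plasma cell markers summed to 1164, 418 and 543 against 1513 and 1151 CPM, and Prdm1 alone of 6 was called higher (1.42, adjusted p = 0.032), a call that also held without WT replicate 2 but was lost without any other library. Over all genes tested 2.47% were called higher and 0.111% lower. The counts at an unadjusted p in this paragraph are given without such a share. No marker found in the table was at 0 in all libraries.

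Few genes of the wider network were called in the mouse. Of 18 complex partners and cofactors tested, Gata1 alone was called higher and 0 lower, against 2.47% and 0.111% of all genes. Their median was 0.02. Gata1 was not called without WT replicate 1 or without either KO library. Of 4 other MYB and GATA family genes tested, 2 were called higher, Gata1 and Mybl2. Mybl2, the relative of Myb that acts in dividing cells, went from 7.26, 13.0 and 6.32 to 31.5 and 40.9 CPM (2.02, adjusted p = 0.03). Its call too was lost without those libraries. Of the ID genes, 0 of 3 were called by either tool and 1 had an unadjusted p under 0.05. Id3 was called lower without WT replicate 3. Id2 measured 88.1, 79.9 and 61.9 CPM in WT and 75.7 and 99.8 CPM in KO, and Id3 measured 36.0, 40.6 and 18.3 CPM in WT and 17.1 and 13.9 CPM in KO (-1.03, adjusted p = 0.21). Of 7 TAL1-induced genes, 12 E protein targets and 6 other T-ALL factors tested, edgeR called 0, with 1, 3 and 0 at an unadjusted p under 0.05, and DESeq2 called 1 TAL1-induced gene higher. The counts at an unadjusted p in this paragraph are given without their share over all genes. The medians of these lists, in the same order, were 0.37, 0.05 and -0.05. The most abundant of them were Trib2 with 248, 264 and 238 CPM in WT and 272 and 267 CPM in KO, Cd4 with 458, 435 and 543 against 447 and 465 CPM, and Bcl11b with 365, 284 and 443 against 363 and 379 CPM. Tlx1, Tlx3 and Nkx2-1 were at 0 in all 5 libraries.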

How the data were processed

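Counts were analysed from 9 RNA-seq libraries, 4 of J.gamma1 cells and 5 of mouse splenic CD3+ T cells, grouped by their labels. The authors sequenced paired ends of 150 bases, aligned them with HISAT2 2.2.0 to hg38 or mm10 (per the labels) and estimated abundance with StringTie, and they deposited whole-number counts per Ensembl gene, neither normalized nor pooled. How coverage became counts, the annotation release and any use of strand are not given in the sources used here, so counts divided by 2 served as an alternative and overlapping genes are named.

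Rows were matched to GENCODE 44 (human) and M21 (mouse), which held 98.01% and 99.82% of the counts. edgeR 4.0.16 in R 4.3.3 was run on each table after filterByExpr and TMM (glmQLFit and glmQLFTest), with condition as the sole term. The biological coefficient of variation was 0.165 and 0.271. Replicates differed beyond sampling noise (lowest chi-square per gene 19.6). Precision is set by 2 or 3 libraries a group, and 3 counts, the limit that a count of 0 allows, equal 0.0783 to 0.188 CPM in the mouse, for counting error only. Simulated counts were used to check the fits. DESeq2 1.42.0, RLE and upper-quartile scaling, other filters and fold thresholds, all rows, a replicate block and single libraries left out were the alternatives. Genes at fewer than 10 CPM on average were left out of the search for nearest profiles. Promoter words and words in 3′ UTRs were searched in Python 3.11.15, with human start sites and 3′ UTRs from the Ensembl canonical transcripts of GENCODE 44. RefSeq promoters were read for the mouse, where Lmo2 was not found.

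The members and the lists were chosen with earlier results of these data known. Every member is named. From each other list come at most the 4 called genes with the largest change or, with none called, the 2 of highest mean CPM. Lists of other cell types are given by their sums where nothing was called. Genes named for a call in a single alternative were chosen after their values were seen. A few genes chosen by this rule are not reported here.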

Additional observations from a re-analysis of the deposited data

How the results depend on the processing

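The direction of TAL1, LDB1, GATA3, MYB, TCF3, TCF12, TCF4 and LMO1 in J.gamma1 and of Tal1, Lmo2, Lyl1, Ldb1, Myb and Tcf4 in the mouse was the same under every alternative run. Keeping every gene with at least 1 count in any library left 0 members called lower in J.gamma1 and 396 genes lower and 319 higher in all. A fold threshold of 1 left 1 member lower (LMO1), with 318 genes lower and 262 higher in all. In the mouse, DESeq2 called 2 members higher (Tal1 and Lmo2), with 66 genes lower and 735 higher in all. Requiring 10 counts in every library turned Gata3 to 0.017 and Tcf3 to 0.0096, and Lmo1 then had too few counts for a value. Lmo1 also had no value with counts divided by 2.

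The replicate numbers are shared by the groups without a stated batch, so that samples share only a number. With the number as a block, 2 mouse members were called higher (Lmo2 joined at 1.70, adjusted p = 0.013) and 35 genes were lower in all, while Lmo1 turned to -0.12 and Gata3 to 0.058. In J.gamma1 the block left LMO1 and TCF12 as the called members. Deviations from the group mean over the genes tested were correlated between same-numbered samples. This gave 0.287 in J.gamma1, and 0.21 and -0.109 in the mouse. In a group of 2 libraries the deviations mirror each other, so differently numbered J.gamma1 samples gave -0.287.

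With single libraries left out, a lone sample being assumed to vary like the others, 1 to 3 J.gamma1 members were called lower and 0 to 1 higher, among 419 to 1143 genes lower and 418 to 1608 higher. Without shNC replicate 1, LYL1 turned to -0.0089 from a highest value of 0.35. In the mouse, 0 to 3 members were called higher, among 1 to 35 genes lower and 6 to 532 higher, the fewest without WT replicate 1. Without WT replicate 1, Lmo1 did not pass the filter and had no value. Gata3 ranged from -0.087 to 0.052, Tcf3 from -0.097 to 0.047, Tcf12 from -0.06 to 0.092 and Lmo1, in the other fits, from -0.13 to 0.50. The cause of these moves was not tested. At this depth LMO2 in J.gamma1 and Lmo1 in the mouse allow no statement on a difference.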
